A study of Mus musculus with 24 samples.

Results

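Radial glia are the neural stem cells of the embryonic cortex, and the 8 genes described here, *Nes*, *Vim*, *Fabp7*, *Hopx*, *Ptprz1*, *Prom1*, *Vcam1* and *Tnc*, are used to mark them or the niche around them. They were taken by gene symbol from count tables that each list 26411 genes, and all 8 were among the 12276 genes tested in proliferating and the 13339 genes tested in differentiating cells. The 24 mRNA-seq libraries come from mouse neural stem and progenitor cells (NSPCs), cells isolated from the dorsal telencephalon, the precursor of the cortex, at E12.5 of embryonic development. They form 6 groups of 4, *Kat6a*+/+ (labelled WT), *Kat6a*+/- (HET KO) and *Kat6a*-/- (HOM KO) cells, each grown for 3 days under proliferating or differentiating conditions. *Kat6a* encodes a histone acetyltransferase, and the mutant allele is a germline deletion of several exons, kept on a C57BL/6 background, that brings a premature stop into the catalytic domain. All 3 genotypes come from intercrosses of heterozygous mice, and every cell of a mutant embryo carries the mutation. Proliferating cells were kept on uncoated plastic in medium with FGF2 and EGF, and differentiating cells on poly-L-ornithine and laminin with serum in place of the growth factors. RNA of the 2 conditions was extracted with different kits, so that condition and kit cannot be told apart. Per the study, proliferating *Kat6a*+/+ cells grew as floating neurospheres while many mutant cells stuck to the plastic, so in that condition genotype and growth form cannot be told apart. By their litter and embryo labels, the libraries of a condition came from different embryos, grown as passaged cultures.

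Radial glia line the ventricle, divide there to give neurons directly or through intermediate progenitors, and hold a long basal fibre along which new neurons migrate. Nestin and vimentin, the products of *Nes* and *Vim*, co-assemble into the intermediate filaments of that fibre. *Fabp7* encodes the brain lipid-binding protein, a fatty acid carrier, and *Hopx* a small homeodomain protein without DNA binding of its own that marks outer radial glia in the human cortex. *Ptprz1* encodes a receptor-type tyrosine phosphatase that binds pleiotrophin and tenascins, *Prom1* encodes prominin 1 (CD133) of the apical membrane and its protrusions, and *Vcam1* encodes an adhesion molecule that binds the integrin made of the products of *Itga4* and *Itgb1*. Tenascin C, encoded by *Tnc*, is an extracellular matrix protein of the stem cell niche. Several of these genes, *Vim*, *Vcam1* and *Tnc* most of all, are also expressed by astrocytes, fibroblasts or vascular cells.

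Library totals ranged from 7826660 to 40838203 counts, with the largest in proliferating *Kat6a*+/+ replicate 1. Even the least covered member, *Prom1*, had at least 18 counts in every library, whereas *Vim* had at least 21853. In proliferating NSPCs *Kat6a* itself ranged from 373 to 409 CPM (counts relative to the TMM-scaled library total) without the mutation and from 334 to 389 CPM in *Kat6a*-/- libraries. In differentiating NSPCs these ranges were 239 to 292 and 160 to 253 CPM, so the genotype labels could not be checked by the summed counts of this gene. *Sox2* and *Pax6*, genes of transcription factors that neural stem cells hold, were detected in every library. These genes alone cannot establish stem cell identity, and ranges over all groups do not compare genotypes or conditions. *Sox2* was at 247 to 499 CPM over the libraries of all groups and *Pax6* at 39.1 to 78.2 CPM. In either condition, Y-linked transcripts exceeded 100 CPM in 3 of 4 *Kat6a*+/+ libraries but in only 1 of 4 for each mutant genotype, so that sex and genotype were partly confounded. Of 6 embryos whose label occurs in both conditions, 5 were alike in Y-linked reads. Both libraries labelled with *Kat6a*+/+ embryo 7 of litter 4113 (replicate 1 of either condition) were not alike, so at least 1 of them goes against its label, and results that rest on this embryo are given with and without it. *Kat6a*+/+ replicate 2 is labelled embryo 7 in both conditions, of litter 4346 in proliferating and 4364 in differentiating cells, also with unlike Y-linked reads, and its libraries were treated as different embryos, as labelled. Differentiating *Kat6a*-/- libraries stood apart from each other. The quality weights of the fit, estimated over all genes, gave replicates 1 to 4 of that group 16.8, 4.22, 69.0 and 10.1% of the group's weight.

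Per transcript length (RPKM, CPM divided by the length in kilobases), *Vim* was the highest of the 8 genes in proliferating *Kat6a*+/+ NSPCs, at 2119 ± 178 RPKM (mean ± SD, n = 4 here and below). *Fabp7* followed at 1370.2 ± 192 and *Nes* at 360.1 ± 22.2 RPKM, and these 3 did not overlap in their ranges. *Tnc* at 199 ± 32.1 and *Ptprz1* at 155 ± 27.3 RPKM overlapped each other. *Hopx* at 11.2 ± 1.00 RPKM stood far below them, and *Prom1* and *Vcam1*, at 2.49 ± 0.758 and 1.97 ± 0.709 RPKM, overlapped at the bottom. The order in *Kat6a*+/- proliferating cells was the same. In *Kat6a*-/- proliferating cells *Fabp7* at 1868 ± 428 RPKM lay above *Vim* at 1466 ± 165 RPKM in mean level, with overlapping ranges, and *Ptprz1* at 315 ± 42.5 RPKM lay above *Nes* at 272 ± 47.6 RPKM, also with overlap. In all 3 differentiating groups *Vim* was first and *Fabp7* second, *Tnc*, *Ptprz1* and *Nes* formed a middle group in which neighbours overlapped (in *Kat6a*-/- cells *Tnc* also overlapped *Fabp7*), and *Hopx*, *Vcam1* and *Prom1* followed in that order. *Vim* reached 4074 ± 688 RPKM in differentiating *Kat6a*-/- NSPCs, the highest mean of any of these genes in any group. Together, the 8 genes took 0.959 to 1.03% of all counts in proliferating and 0.767 to 0.88% in differentiating *Kat6a*+/+ libraries. In *Kat6a*-/- libraries they took 0.901 to 1.16% and 1.12 to 1.28%, so the differentiating groups did not overlap in this share.

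**Figure D1:**
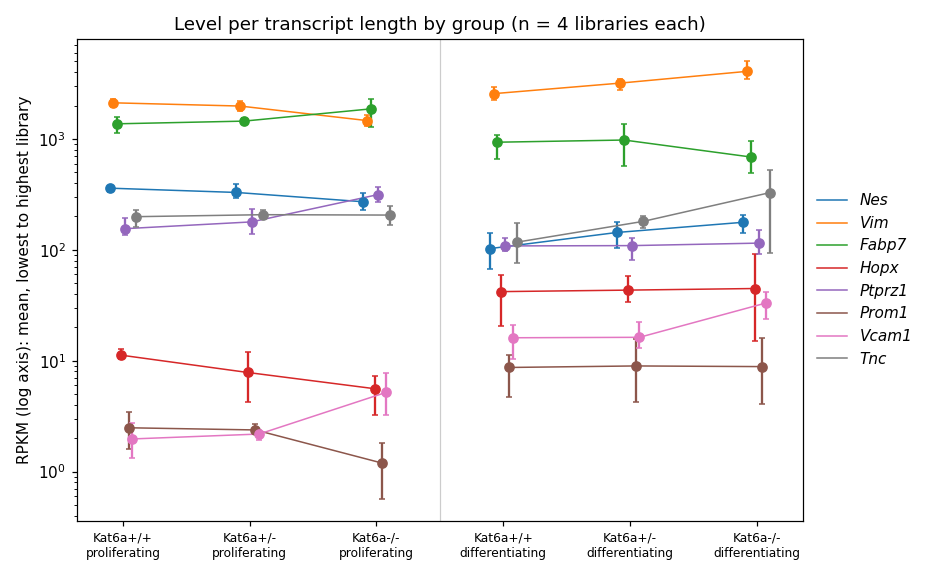
Level per transcript length of the 8 genes in the 6 groups (RPKM, log axis). Points are means of 4 libraries and bars run from the lowest to the highest library; *Vim* and *Fabp7* lie on top in every group, and *Prom1*, *Vcam1* and *Hopx* lie below the others.

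The promoters of 4 of these genes are shown for the filament genes *Nes* and *Vim*, which moved together across the libraries within each condition, and for the fatty acid carrier gene *Fabp7* and the matrix gene *Tnc*. Each window holds the 250 bases before the RefSeq transcription start, read 5′ to 3′ along the gene's own strand in GRCm38.p6. A promoter window was matched by symbol for 7 of the 8 genes, with 10 windows in all. Capitals mark matches, on either strand, to the letters ACAANG (a SOX core), TGGGAA (an RBPJ core) or GGGNNTNCC (a pattern like that of NF-kB). TGANTCA (AP-1) was searched as well, and it matched only in both *Prom1* windows.
*Nes*, chr3:87970843-87971092, plus strand: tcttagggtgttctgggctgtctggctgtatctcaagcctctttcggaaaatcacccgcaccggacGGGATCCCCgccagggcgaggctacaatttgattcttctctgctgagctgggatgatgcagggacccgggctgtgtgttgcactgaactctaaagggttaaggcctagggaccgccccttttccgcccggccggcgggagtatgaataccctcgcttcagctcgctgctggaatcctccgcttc
*Vim*, chr2:13574061-13574310, plus strand: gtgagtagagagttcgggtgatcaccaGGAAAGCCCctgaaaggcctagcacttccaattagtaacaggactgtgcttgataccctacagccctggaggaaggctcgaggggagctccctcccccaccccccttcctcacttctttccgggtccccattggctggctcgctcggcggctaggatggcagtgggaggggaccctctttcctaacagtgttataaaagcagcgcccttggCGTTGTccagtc
*Fabp7*, chr10:57784673-57784922, plus strand: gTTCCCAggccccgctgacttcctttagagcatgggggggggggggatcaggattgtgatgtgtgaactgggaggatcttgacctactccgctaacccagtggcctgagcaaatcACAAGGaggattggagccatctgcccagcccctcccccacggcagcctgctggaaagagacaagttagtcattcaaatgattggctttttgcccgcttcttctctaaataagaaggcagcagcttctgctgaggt
*Tnc*, chr4:64046937-64047186, minus strand: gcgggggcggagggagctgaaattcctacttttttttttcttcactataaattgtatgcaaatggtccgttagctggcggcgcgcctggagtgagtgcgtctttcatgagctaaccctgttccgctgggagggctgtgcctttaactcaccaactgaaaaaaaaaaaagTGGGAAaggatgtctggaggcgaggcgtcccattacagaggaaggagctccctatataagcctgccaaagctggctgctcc
In the *Vim* window the SOX letters begin 12 bases before the start and the NF-kB-like letters 223 bases before it, counted at the base farthest upstream. *Nes* has only the NF-kB-like letters, at 184. *Fabp7* has the SOX letters at 135 and the RBPJ letters at 249, and the *Tnc* window shown has the RBPJ letters at 81. A further *Tnc* window, of another annotated start (chr4:64047016-64047265, minus strand), is not shown and has the RBPJ letters at 250. Over 32851 mouse promoter windows of this length, 36.3% hold the SOX letters, 21.6% the RBPJ letters, 14% the NF-kB-like letters and 6.75% the AP-1 letters, so such matches are common, and none of them is shown here to be a bound site. On mm39, the build of the counts, *Nes* lies on chr3 (87878385 to 87887758, plus strand), *Vim* on chr2 (13578738 to 13587639, plus), *Fabp7* on chr10 (57660956 to 57664554, plus) and *Tnc* on chr4 (63878014 to 63965443, minus). *Hopx* lies on chr5 (77234831 to 77263022, minus), *Prom1* also on chr5 (44150962 to 44259395, minus), *Ptprz1* on chr6 (22875358 to 23054236, plus) and *Vcam1* on chr3 (115903598 to 115923355, minus). In GENCODE vM39 an antisense transcript, *Hopxos*, covers 38.9% of the exonic bases of *Hopx*, and antisense transcripts cover 12.3% of those of *Vim* and 11.2% of those of *Prom1*. The strand setting of the counting is not given in the sources used here, so reads of these pairs may not be told apart.

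The first comparison asked which of the 8 genes differed in proliferating NSPCs that lack intact *Kat6a*. The filament genes *Nes* and *Vim*, the apical gene *Prom1* and *Hopx* were lower in *Kat6a*-/- cells, while *Ptprz1*, *Vcam1* and *Fabp7* were higher and *Tnc* did not pass the test. In all, 7 of 8 were called (false discovery rate, FDR, under 0.05), where 30% of all genes tested were called. The 3 higher members stand beside 16.2% of all genes called higher, and the 4 lower members beside 13.8% called lower. In bulk libraries such as these, fewer cells that hold a transcript and less of it per cell cannot be told apart. *Nes* was at 2323, 2286, 2197 and 2018 CPM in *Kat6a*+/+ replicates 1 to 4 and at 1422, 1846, 1978 and 1409 CPM in *Kat6a*-/- replicates 1 to 4. All 4 *Kat6a*-/- libraries lay below the *Kat6a*+/+ range, with a fitted log2 fold-change of −0.36 (SE 0.12, FDR 0.0322). *Vim* was at 4238, 3548, 3678 and 4082 CPM in *Kat6a*+/+ and at 2474, 2858, 3027 and 2394 CPM in *Kat6a*-/- NSPCs. Again the groups did not overlap, and the log2 fold-change was −0.47 (SE 0.08, FDR 0.00108).

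*Fabp7* and *Hopx* moved in opposite directions. *Fabp7* was at 998, 868, 1211 and 1099 CPM in *Kat6a*+/+ and at 1451, 1498, 1764 and 981 CPM in *Kat6a*-/- NSPCs. Replicate 4 of *Kat6a*-/- lay within the *Kat6a*+/+ range while the other 3 lay above it, and the log2 fold-change was 0.44 (SE 0.13, FDR 0.0236). *Hopx* was at 16.2, 15.7, 19.1 and 16.9 CPM in *Kat6a*+/+ and at 8.04, 9.92, 11 and 4.89 CPM in *Kat6a*-/- NSPCs, without overlap. Its log2 fold-change of −0.97 (SE 0.28, FDR 0.0186) was found at a level far below that of the filament genes.

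The 3 genes of membrane proteins moved in both directions. *Ptprz1* was at 1355, 1400.0, 1949.6 and 1497 CPM in *Kat6a*+/+ and at 3715, 3074, 3132 and 2685 CPM in *Kat6a*-/- NSPCs, and each *Kat6a*-/- library lay above each *Kat6a*+/+ library. Its log2 fold-change was 0.98 (SE 0.15, FDR 0.000531). *Vcam1* was also higher without overlap, from 4.78, 4.51, 9.25 and 8.25 CPM in *Kat6a*+/+ to 18.8, 14.3, 26.2 and 11.1 CPM in *Kat6a*-/- NSPCs, and had the largest change of the 8, a log2 fold-change of 1.58 (SE 0.24, FDR 0.000571). *Prom1* was at 9.71, 10.3, 14.2 and 6.6 CPM in *Kat6a*+/+ and at 4.98, 2.32, 4.93 and 7.38 CPM in *Kat6a*-/- NSPCs. Its highest *Kat6a*-/- library, replicate 4, lay above the lowest *Kat6a*+/+ library, also replicate 4, and its log2 fold-change was −1.08 (SE 0.29, FDR 0.014). The matrix gene *Tnc*, at 1684, 1644, 1359 and 1188 CPM in *Kat6a*+/+ against 1248, 1708, 1822 and 1295 CPM in *Kat6a*-/- NSPCs, had a log2 fold-change of 0.14 (SE 0.13, FDR 0.455) with a 95% interval from −0.15 to 0.42.

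Ranges did not overlap for 5 of the 8 genes (*Nes*, *Vim*, *Hopx*, *Ptprz1* and *Vcam1*), against 31.3% of all genes tested. The calls of *Vim*, *Ptprz1*, *Prom1* and *Vcam1* held in all 21 alternative fits. The *Nes* call was lost without *Kat6a*+/+ replicate 1, 2 or 3 or *Kat6a*-/- replicate 1 or 4 (FDR 0.0698 to 0.0921), and the *Fabp7* call without *Kat6a*+/+ replicate 1, 2 or 4 or *Kat6a*-/- replicate 1, 2 or 3 (FDR 0.0514 to 0.0925). *Hopx* lost its call without *Kat6a*-/- replicate 4 (−0.78, FDR 0.0792). With litter as a fixed term, *Nes* (−0.32, FDR 0.164) and *Hopx* (−0.80, FDR 0.0669) were not called.

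**Figure D2:**
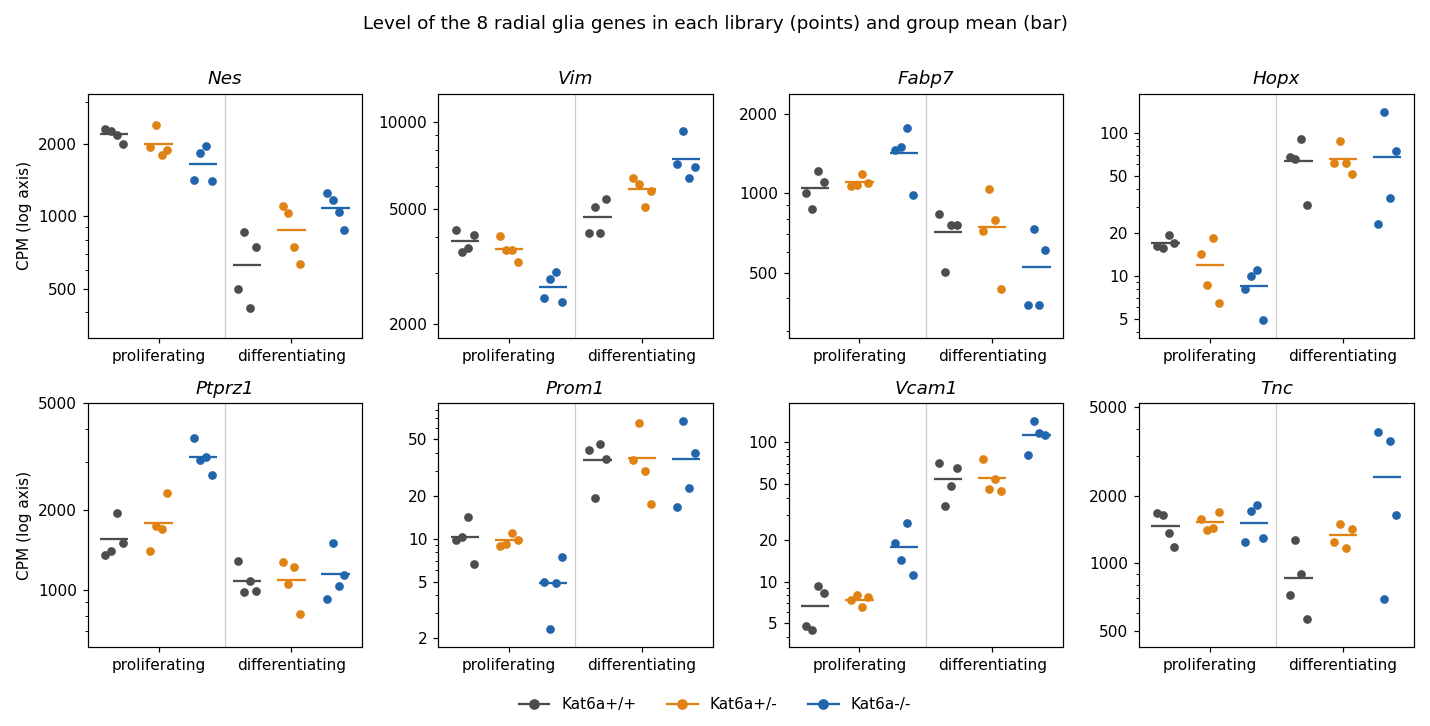
Level of each of the 8 genes in CPM (log axis) in all 24 libraries. Each point is 1 library and each bar the mean of 4; in proliferating cells the *Kat6a*-/- points of *Ptprz1* and *Vcam1* lie above, and those of *Nes*, *Vim* and *Hopx* below, every *Kat6a*+/+ point, and in differentiating cells the 4 *Kat6a*-/- points of *Tnc* run from 693 to 3857 CPM.

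The same genotypes were then compared in differentiating NSPCs. *Nes* and *Vim* were higher in *Kat6a*-/- than in *Kat6a*+/+ cells, *Vcam1* and *Tnc* were higher as well, and *Fabp7* and *Hopx* were called lower. *Ptprz1* and *Prom1* did not pass the test. These 6 calls of 8 stand beside 54.4% of all genes tested, the 4 higher ones beside 26.7% and the 2 lower ones beside 27.7%. Ranges did not overlap for 3 of 8 genes (*Nes*, *Vim* and *Vcam1*), against 26.9% of all genes. *Nes* was at 497, 861, 414 and 743 CPM in *Kat6a*+/+ replicates 1 to 4 and at 1250.3, 1174, 1046 and 876 CPM in *Kat6a*-/- replicates 1 to 4, and the log2 fold-change was 1.04 (SE 0.21, FDR 0.00126). *Vim* was at 4142, 5098, 4145 and 5412 CPM in *Kat6a*+/+ and at 7163, 9302, 6412 and 7010.4 CPM in *Kat6a*-/- NSPCs, with a log2 fold-change of 0.61 (SE 0.11, FDR 0.000641). Both filament genes were thus above the *Kat6a*+/+ range in all 4 *Kat6a*-/- libraries. *Vcam1* was at 70.8, 35.0, 48.4 and 64.8 CPM in *Kat6a*+/+ and at 80.6, 142, 116 and 113 CPM in *Kat6a*-/- NSPCs, again without overlap, with a log2 fold-change of 0.94 (SE 0.21, FDR 0.00244).

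*Tnc* had the largest fitted change of the 8 genes. It was at 724, 1276, 892 and 563 CPM in *Kat6a*+/+ and at 3857, 693, 3499.7 and 1635 CPM in *Kat6a*-/- NSPCs, so replicates 1 and 3 lay far above every *Kat6a*+/+ library, replicate 4 above them by less, and replicate 2 within their range. The fitted log2 fold-change was 1.96 (SE 0.26, FDR 7.76e-05). *Fabp7* was low where *Tnc* was high, at 377, 734, 377 and 608 CPM in *Kat6a*-/- replicates 1 to 4 against 836, 501, 759 and 755 CPM in *Kat6a*+/+ NSPCs. Its log2 fold-change was −0.90 (SE 0.19, FDR 0.00168). *Hopx*, at 67.2, 65.8, 89.6 and 31.2 CPM in *Kat6a*+/+ against 22.8, 139, 34.8 and 74.3 CPM in *Kat6a*-/- NSPCs, was likewise lowest in replicates 1 and 3 and highest in replicate 2. The fit gave −0.84 (SE 0.32, FDR 0.0408) although the unweighted mean of *Kat6a*-/- libraries, 67.7 ± 52.2 CPM, was not below that of *Kat6a*+/+ libraries, 63.4 ± 24.1 CPM. *Prom1* ran in the same order, at 41.6, 19.2, 45.9 and 36.2 CPM in *Kat6a*+/+ against 16.8, 66.1, 22.7 and 39.8 CPM in *Kat6a*-/- NSPCs (log2 fold-change −0.71, SE 0.29, FDR 0.0558). *Ptprz1* was at 1282, 981, 1076 and 996 CPM and 925, 1495, 1038 and 1138 CPM in the same order of groups, and its log2 fold-change of −0.12 (SE 0.13, FDR 0.442) has a 95% interval from −0.40 to 0.16.

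The call count depended on 2 libraries, on the weights and on the method. By edgeR's and by DESeq2's test 4 genes were called higher (*Nes*, *Vim*, *Vcam1* and *Tnc*) and 0 lower. *Fabp7* then stood at −0.45 (FDR 0.277) and −0.43 (FDR 0.258), and *Hopx* at 0.09 (FDR 0.913) and 0.10 (FDR 0.904). Without *Kat6a*-/- replicate 1 no member was called, where 1212 genes were called in all, and without *Kat6a*-/- replicate 3 only *Vim* was called, with 939 genes in all. *Nes* then stood at 1.07 (FDR 0.14) and 1.15 (FDR 0.155), *Vcam1* at 1.17 (FDR 0.0917) and 1.03 (FDR 0.186), and *Tnc* at 0.93 (FDR 0.272) and 0.73 (FDR 0.43), so the direction of these 3 was kept. *Vim* stood at 0.82 (FDR 0.0503) without replicate 1. *Fabp7* stood at −0.49 (FDR 0.444) and −0.37 (FDR 0.616), and *Hopx* turned to 0.12 (FDR 0.932) and 0.16 (FDR 0.921). *Hopx* was also not called without *Kat6a*+/+ replicate 1, 2 or 3 or *Kat6a*+/- replicate 1, 3 or 4 (FDR 0.0506 to 0.293). Without quality weights *Nes*, *Vim* and *Vcam1* were called, while *Tnc* (1.26, FDR 0.0692) and *Fabp7* (−0.48, FDR 0.251) were not, and with litter as a fixed term none of the 8 was called, with 1785 genes in all. With library totals in place of TMM scaling 31.7% of all genes called were higher, against 49.1%, and the median of all genes moved to −0.17, while the 6 calls stood and *Prom1* was called lower (−0.89, FDR 0.0169). *Prom1* was also called lower when *Kat6a*+/+ replicate 2, *Kat6a*+/- replicate 2 or *Kat6a*-/- replicate 2 or 4 was left out (FDR 0.00305 to 0.0443).

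**Figure D3:**
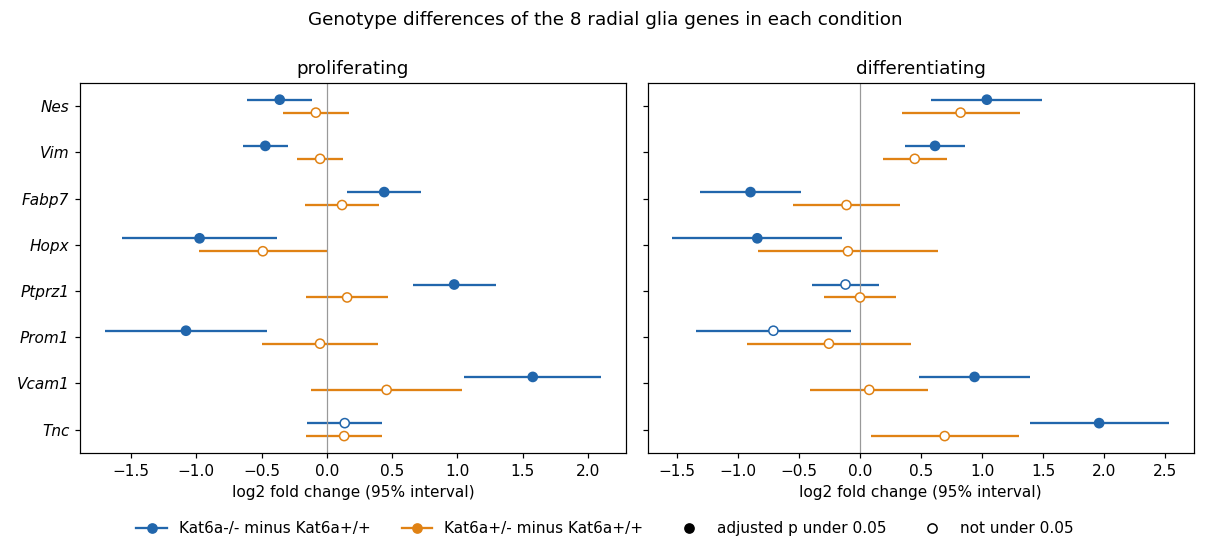
Fitted log2 fold-changes of the 8 genes with 95% intervals, *Kat6a*-/- (blue) and *Kat6a*+/- (orange) against *Kat6a*+/+, in proliferating (left) and differentiating (right) NSPCs. Filled points passed the FDR of 0.05; *Nes* and *Vim* lie left of 0 in proliferating and right of 0 in differentiating *Kat6a*-/- cells, and no *Kat6a*+/- point is filled.

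**Figure D4:**
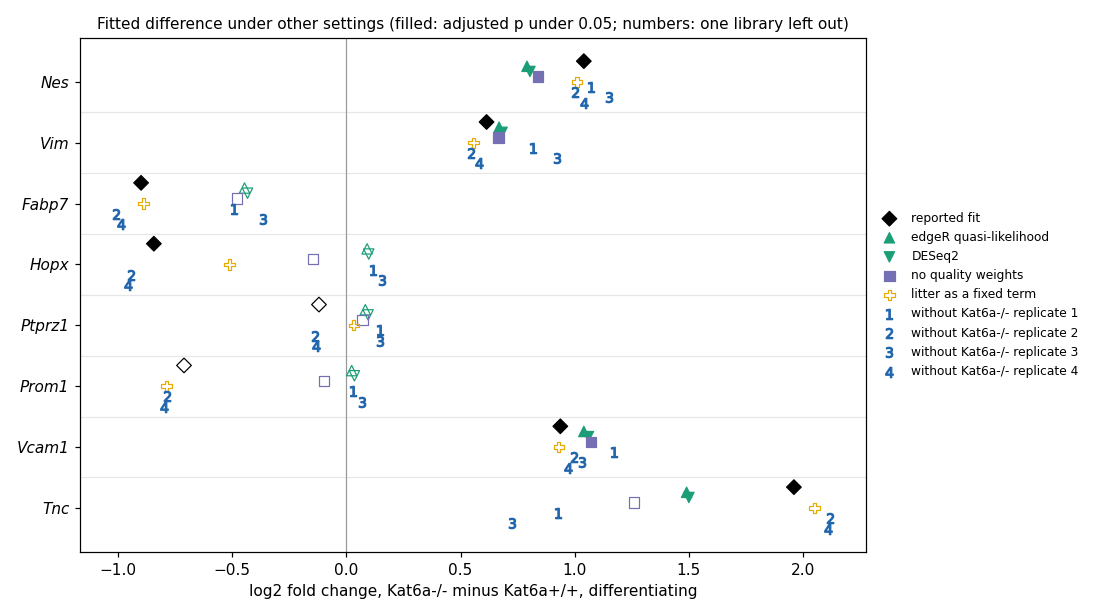
Fitted log2 fold-change of each gene, *Kat6a*-/- against *Kat6a*+/+ in differentiating NSPCs, under the reported fit (diamonds), other tools and terms, and with each *Kat6a*-/- library left out (numerals). *Nes*, *Vim*, *Vcam1* and *Tnc* stay right of 0 under every setting shown, whereas *Hopx*, *Prom1* and *Ptprz1* fall on both sides.

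None of the 8 genes was called between *Kat6a*+/- and *Kat6a*+/+ cells. The *Kat6a*+/- and *Kat6a*+/+ comparison called 0% of genes in proliferating cells (limma, 0 of 12276, with 912 at an unadjusted p under 0.05; edgeR called 0 and DESeq2 28) and 0% in differentiating cells (limma, 0 of 13339, with 1926 at an unadjusted p under 0.05; edgeR called 0 and DESeq2 8). At an unadjusted p under 0.05 were 1 member in proliferating cells (*Hopx*) and 3 in differentiating cells (*Nes*, *Vim* and *Tnc*). *Hopx* in proliferating *Kat6a*+/- NSPCs was at 14.2, 8.52, 18.2 and 6.44 CPM, with replicate 3 in the *Kat6a*+/+ range and the others below it (log2 fold-change −0.49, SE 0.23, FDR 0.67). *Nes* in differentiating *Kat6a*+/- NSPCs was at 1102, 1035, 747 and 630.1 CPM, *Vim* at 6435, 6121, 5084 and 5776 CPM and *Tnc* at 1238, 1502, 1167 and 1421 CPM. All 4 libraries lay above the *Kat6a*+/+ mean for each of these genes, but the ranges overlapped, and the log2 fold-changes of 0.82 (SE 0.22, FDR 0.199) for *Nes*, 0.45 (SE 0.12, FDR 0.199) for *Vim* and 0.69 (SE 0.28, FDR 0.294) for *Tnc* did not pass. Without *Kat6a*+/- replicate 3, *Nes* (0.96, FDR 0.046) and *Vim* (0.52, FDR 0.0407) were called. *Ptprz1* had 95% intervals from −0.16 to 0.47 and from −0.29 to 0.29 in the 2 conditions, and the interval of *Vcam1* reached from −0.12 to 1.04 in proliferating cells.

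Set against *Kat6a*+/- cells, which differ from *Kat6a*-/- cells in the remaining allele, 4 of 8 genes were called in proliferating *Kat6a*-/- NSPCs, beside 14.8% of all genes. *Ptprz1* was at 1399.8, 1729.8, 1696 and 2315 CPM in *Kat6a*+/- NSPCs and had a log2 fold-change of 0.82 (SE 0.14, FDR 0.00331). *Vcam1* was at 7.32, 8.02, 6.61 and 7.71 CPM (1.12, SE 0.25, FDR 0.0121), *Vim* at 4031, 3602, 3609 and 3292 CPM (−0.42, SE 0.08, FDR 0.00434) and *Prom1* at 8.93, 9.22, 11 and 9.86 CPM (−1.03, SE 0.29, FDR 0.0303). These 4, and none of the others, did not overlap between the groups, against 12.3% of all genes. The *Prom1* call was lost in edgeR's fit (FDR 0.0557), in a fit with fixed litter effects (FDR 0.0516) and without *Kat6a*+/- replicate 1, 2 or 3 or *Kat6a*-/- replicate 1 or 2 (FDR 0.0528 to 0.0684), and *Nes* or *Fabp7* was gained when *Kat6a*-/- replicate 3 (*Nes* −0.35, FDR 0.0413) or 4 (*Fabp7* 0.51, FDR 0.0119) was left out. In differentiating cells 3 of 8 genes were called, beside 37.5% of all genes. These were *Tnc* (1.27, SE 0.31, FDR 0.00787), *Vcam1* (0.86, SE 0.24, FDR 0.0169) and *Fabp7* (−0.79, SE 0.22, FDR 0.0163), and of the 8 genes only *Vcam1* did not overlap between the groups, against 16.2% of all genes. All 3 calls were lost without *Kat6a*-/- replicate 1 (*Tnc* 0.22, FDR 0.903) or replicate 3 (*Tnc* 0.02, FDR 0.993). Over 22 alternative fits *Fabp7* lost its call in 9, *Tnc* in 8 and *Vcam1* in 3. By edgeR, without the filter on low counts, without quality weights and by limma-voom, 1 member was called higher and 0 lower. DESeq2 and a replicate block each gave 2 higher and 0 lower. *Hopx* was called lower without *Kat6a*-/- replicate 2 (−0.86, FDR 0.0183) or 4 (−0.86, FDR 0.0454). *Nes* and *Vim*, with 95% intervals from −0.32 to 0.75 and from −0.12 to 0.45, did not pass.

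The change from proliferating to differentiating conditions was examined next, within each genotype. In *Kat6a*+/+ NSPCs *Vcam1*, *Hopx*, *Prom1* and *Vim* were higher and *Nes*, *Tnc*, *Fabp7* and *Ptprz1* lower in differentiating cells. All 8 were called, beside 72.9% of all genes, with 36.7% called higher and 36.2% lower. Ranges did not overlap for 6 of them, against 71.9% of all genes, and *Vim* and *Tnc* were the exceptions. *Vcam1* rose the most, from 6.70 ± 2.41 to 54.8 ± 16.3 CPM (log2 fold-change 3.25, SE 0.34, FDR 2.77e-08). *Hopx* rose from 17.0 ± 1.51 to 63.4 ± 24.1 CPM (1.83, SE 0.46, FDR 0.00132) and *Prom1* from 10.2 ± 3.11 to 35.7 ± 11.7 CPM (1.77, SE 0.46, FDR 0.00152). The 2 filament genes parted, since *Nes* fell from 2206 ± 136 to 629 ± 208 CPM (−1.86, SE 0.21, FDR 7.08e-08) and *Vim* was at 3886 ± 326 and 4699 ± 654 CPM (0.27, SE 0.12, FDR 0.0478). *Tnc* (−0.80, SE 0.34, FDR 0.0428), *Fabp7* (−0.58, SE 0.25, FDR 0.041) and *Ptprz1* (−0.52, SE 0.17, FDR 0.00981) were called lower. The calls of *Vim*, *Fabp7* and *Tnc* lay close to the threshold. Each was lost when single libraries were left out, some of them of another genotype, at FDRs of up to 0.106, 0.195 and 0.16, in fits that share 1 estimate of the spread over all 24 libraries. *Ptprz1* lost its call without proliferating *Kat6a*+/+ replicate 3 (−0.37, FDR 0.0766). Without the *Kat6a*+/+ embryo with unlike Y-linked reads 6 of 8 were called, and *Fabp7* (−0.65, FDR 0.0565) and *Tnc* (−0.64, FDR 0.174) were not.

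In *Kat6a*+/- NSPCs 7 genes were called, beside 69.7% of all genes, and in *Kat6a*-/- NSPCs also 7, beside 69.2%. *Tnc* was the gene without a call in both, at −0.20 (SE 0.34, FDR 0.609) in *Kat6a*+/- and 0.41 (SE 0.35, FDR 0.297) in *Kat6a*-/- NSPCs. Without differentiating *Kat6a*-/- replicate 2, *Tnc* was called higher in *Kat6a*-/- NSPCs (0.89, FDR 0.00357). *Fabp7* lost its call in *Kat6a*+/- NSPCs without proliferating replicate 3 (−0.59, FDR 0.0627) or differentiating replicate 4 (−0.37, FDR 0.159). The directions of the other genes were those found in *Kat6a*+/+ cells, with *Vim* at 0.69 (SE 0.12, FDR 2.59e-05) in *Kat6a*+/- and 1.47 (SE 0.12, FDR 6.19e-10) in *Kat6a*-/- NSPCs, and *Nes* at −1.23 (SE 0.20, FDR 1.92e-05) and −0.61 (SE 0.20, FDR 0.0109).

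Cells of 6 embryos were sequenced under both conditions. *Nes*, *Fabp7* and *Ptprz1* were lower in the differentiating library of 6 of 6 embryos, and *Hopx*, *Prom1* and *Vcam1* were higher in 6 of 6. *Vim* was higher in 5 of 6, with the exception at −0.03 on the log2 scale in the *Kat6a*+/+ embryo whose libraries differ in Y-linked reads. Without that embryo all 7 of these genes moved in the same direction in 5 of 5. For *Tnc* the embryos split, with 4 lower and 2 higher, or 3 and 2 without that embryo. Both higher ones were *Kat6a*-/-, at 0.94 (replicate 3 in either condition, 1822 to 3500 CPM) and 0.34 (replicate 4, 1295 to 1635 CPM), while the third *Kat6a*-/- embryo was at −1.30 (replicate 2, 1708 to 693 CPM). *Vim* differed by 1.7, 1.08 and 1.55 on the log2 scale in the 3 *Kat6a*-/- embryos and by −0.03 and 0.17 in the 2 *Kat6a*+/+ embryos.

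**Figure D5:**
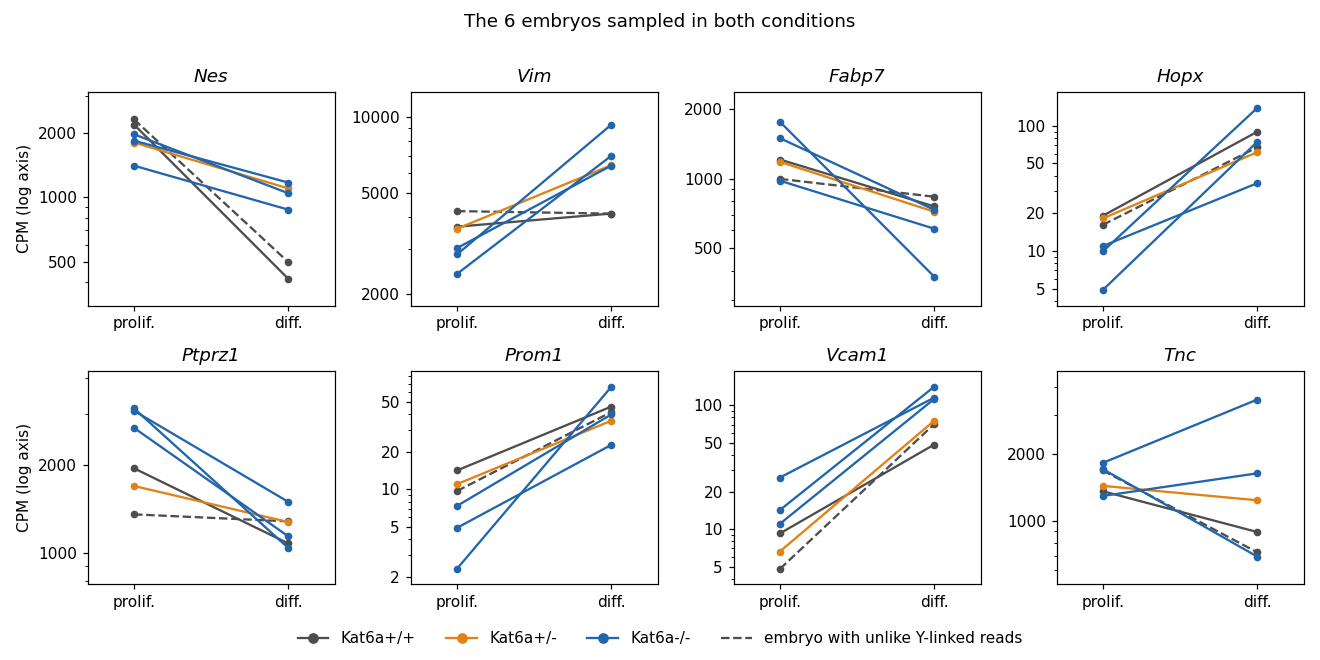
Level of the 8 genes in CPM (log axis) in the 6 embryos sampled under both conditions, with a line joining the proliferating (left) and differentiating (right) library of each embryo. *Hopx*, *Prom1* and *Vcam1* are higher and *Nes*, *Fabp7* and *Ptprz1* lower in the differentiating library of every embryo, the 3 *Kat6a*-/- lines of *Vim* are the steepest, and dashed lines mark the embryo with unlike Y-linked reads.

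Whether the *Kat6a*-/- difference itself depended on the condition was tested by the interaction of genotype and condition over all 24 libraries. This fit is separate from those within a condition and used no quality weights. Its estimates are therefore not the differences between the fold-changes given above, least of all for *Hopx*, *Prom1* and *Tnc*. The interaction was called for 3 of 8 genes, beside 13.9% of all genes, with 2 members on the higher side (6.36% of all genes) and 1 on the lower side (7.58%). The *Kat6a*-/- difference in differentiating minus that in proliferating cells was 1.25 (SE 0.29, FDR 0.00642) for *Nes* and 1.20 (SE 0.17, FDR 0.000179) for *Vim*, and it was −0.95 (SE 0.24, FDR 0.0118) for *Ptprz1*, which was called higher in proliferating *Kat6a*-/- cells and not called in differentiating ones. The *Nes* and *Vim* calls held in all 35 alternative fits. The *Ptprz1* call was lost when the *Kat6a*+/+ embryo with unlike Y-linked reads was left out (−0.84, FDR 0.0594), a fit chosen after seeing the data, in which 905 genes were called in all against 1895, and it held in the others. With library totals in place of TMM scaling 22.1% of the genes called were on the higher side, against 45.6%, and *Nes* and *Vim* stayed higher and *Ptprz1* lower. *Tnc* (1.21, SE 0.49, FDR 0.102) and *Fabp7* (−0.90, SE 0.34, FDR 0.0828) did not pass, but *Tnc* was called without differentiating *Kat6a*-/- replicate 2 (1.66, FDR 0.00158). *Fabp7* was called without that library (−1.14, FDR 0.0152) and without proliferating *Kat6a*-/- replicate 4 (−1.11, FDR 0.0425), differentiating *Kat6a*+/+ replicate 2 (−1.12, FDR 0.0367) or differentiating *Kat6a*+/- replicate 4 (−0.95, FDR 0.0384). *Hopx*, *Prom1* and *Vcam1* had estimates of 0.94 (SE 0.87, FDR 0.505), 1.01 (SE 0.89, FDR 0.483) and −0.52 (SE 0.45, FDR 0.481). The interaction of *Kat6a*+/- genotype and condition was called for 0% of genes (limma, 0 of 13590, with 412 at an unadjusted p under 0.05; edgeR and DESeq2 also called 0), and 2 members, *Nes* and *Vim*, were under 0.05 before adjustment (0.63, unadjusted limma p 0.0403, FDR 1 and 0.42, unadjusted limma p 0.0201, FDR 1).

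Other genes of radial glia were read next to the 8. Of 20 further radial glia genes, 6 passed as higher and 2 as lower in proliferating *Kat6a*-/- NSPCs, beside 30% of all genes called, and the median log2 fold-change was 0.08, beside −0.0045 over all genes. In differentiating *Kat6a*-/- NSPCs 13 passed as lower and 3 as higher, beside 54.4% of all genes called, and the median was −0.75, beside −0.016 over all genes. The lower calls numbered 3 without *Kat6a*-/- replicate 1, 2 without replicate 3 and 7 without quality weights, with 0 higher in each of these 3 fits, which were added after the data were seen and called 9.01, 6.99 and 23.2% of all genes. The median was then −0.33, −0.35 and −0.48. The summed CPM of the 20 genes was 8084 to 10270.0 in *Kat6a*+/+ libraries and 5716, 12410.0, 6377 and 8673 in *Kat6a*-/- replicates 1 to 4, so that replicate 2 lay above every *Kat6a*+/+ library. *Ednrb*, which encodes an endothelin receptor, went from 152.1 ± 66.3 to 818 ± 142 CPM in proliferating cells (2.35, SE 0.32, FDR 0.000485), whereas *Fgfr3*, of a fibroblast growth factor receptor, went from 43.8 ± 7 to 14.9 ± 2.88 CPM (−1.38, SE 0.33, FDR 0.00833). *Hes5*, a Notch target that keeps radial glia undifferentiated, went from 33.7 ± 17.6 to 1.92 ± 1.10 CPM in differentiating cells (−4.58, SE 0.42, FDR 6.59e-06), and *Id4*, of an inhibitor of basic helix-loop-helix factors, from 242 ± 58.7 to 160.3 ± 135 CPM (−1.61, SE 0.24, FDR 0.000149). Of the outer radial glia genes, 4 of 7 tested were called higher and 2 lower in proliferating cells, beside 30% of all genes, and 3 of 8 higher and 0 lower in differentiating cells, beside 54.4%. None of the 8 was called there without *Kat6a*-/- replicate 1 or 3. *Itgb5*, of an integrin subunit, was higher in both, from 24.7 ± 1.14 to 59.4 ± 4.66 CPM (1.24, SE 0.14, FDR 8.7e-05) and from 149 ± 12.7 to 234 ± 75 CPM (0.97, SE 0.15, FDR 0.00023). *Moxd1* was lower in proliferating cells (57.0 ± 21.0 to 15.6 ± 8.48 CPM, log2 fold-change −2.18, SE 0.36, FDR 0.00122), and *Fam107a* higher in differentiating cells at a low level (1.03 ± 0.24 to 2.55 ± 0.93 CPM, log2 fold-change 1.36, SE 0.33, FDR 0.00408).

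Genes of known partners of the 8 products, such as ligands, integrin receptors and filament proteins, were also read. In proliferating *Kat6a*-/- NSPCs 4 of 16 tested were called higher and 1 lower, beside 30% of all genes. In differentiating *Kat6a*-/- NSPCs 10 of 15 passed as higher and 2 as lower, beside 54.4% of all genes, and the median was 0.88. Without *Kat6a*-/- replicate 1 or 3, 0 passed, and without quality weights 5 passed as higher and 0 as lower. *Itgav*, of an integrin subunit that binds tenascin C, went from 241 ± 24 to 404 ± 30.4 CPM in proliferating cells (0.72, SE 0.09, FDR 0.000123), and *Itga8*, of a further tenascin C receptor, from 17.4 ± 0.53 to 9.02 ± 1.51 CPM (−1.0, SE 0.18, FDR 0.00143). *Itga9* and *Itgb3*, of 2 more such subunits, went from 2.16 ± 1.36 to 7.84 ± 4.91 CPM (2.86, SE 0.41, FDR 0.000126) and from 1.27 ± 0.73 to 4.86 ± 3.79 CPM (2.70, SE 0.44, FDR 0.000275) in differentiating cells. Of close paralogs, none of 4 tested passed in proliferating cells, beside 30% of all genes, and 3 of 7 were called higher in differentiating cells, beside 54.4%, but 0 without *Kat6a*-/- replicate 1 or 3. Among the 3 was *Ptprg*, the phosphatase gene nearest to *Ptprz1* (157 ± 11 to 202 ± 19.9 CPM, log2 fold-change 0.41, SE 0.06, FDR 9.38e-05).

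Markers of other cell types moved as well, and their part in the values of the 8 genes was not tested. By flow cytometry the study found fewer cells with the neuronal marker ßIII-tubulin in differentiating cultures of both mutant genotypes. Shares of GFAP (astrocyte) or O4 (oligodendrocyte) positive cells did not differ significantly, and proliferating cells of all genotypes expressed SOX2. The study cautions that its differentiating RNA results mix cell composition with direct effects on expression. Calls here and in the next paragraph stand beside 30% of all genes called in proliferating cells (16.2% higher, 13.8% lower). In differentiating cells the share was 54.4% (26.7% higher, 27.7% lower). Without *Kat6a*-/- replicate 1, without replicate 3 and without quality weights it was 9.01, 6.99 and 23.2%. Transcripts of fibroblasts and meninges, cells that also express *Tnc*, *Vcam1* and *Vim*, summed to 35.6 to 71.1 CPM in differentiating *Kat6a*+/+ and 76.3 to 386 CPM in *Kat6a*-/- libraries, and all 5 tested of 8 were called higher, against 1 without *Kat6a*-/- replicate 1, 0 without replicate 3 and 2 without quality weights. *Col1a1* went from 6.20 ± 6.80 to 107 ± 72.3 CPM (5.19, SE 0.57, FDR 2.16e-05) and *Thy1* from 6.55 ± 3.11 to 66.0 ± 41.3 CPM (3.65, SE 0.43, FDR 3.33e-05). Over *Kat6a*-/- replicates 1 to 4 the sum was 328, 76.3, 386 and 231 CPM. In the same libraries the defining markers *Col3a1* and *Dcn* reached at most 0.783 and 0.964 CPM, and *Lum* was at 0. In proliferating cells 1 of 2 tested was called higher (*Thy1*, 4.02, SE 0.85, FDR 0.00499), and the sum was 21.9 to 27.7 CPM against 31.7 to 82.1 CPM. Astrocyte transcripts, which include *Gfap*, summed to 209 to 248 CPM in proliferating *Kat6a*+/+ and 426 to 563 CPM in *Kat6a*-/- libraries, with 4 of 6 called higher, among them *Slc1a2* (21.6 ± 3.31 to 118 ± 45.4 CPM, log2 fold-change 2.36, SE 0.32, FDR 0.000401) and *S100b* (3.76 ± 1.41 to 16.2 ± 2.07 CPM, log2 fold-change 2.23, SE 0.22, FDR 2.85e-05). In differentiating cells they summed to 996 to 1633 CPM and, over *Kat6a*-/- replicates 1 to 4, to 800.3, 5193, 1023 and 2339 CPM, the same order of libraries as for *Hopx* and *Prom1*. There *S100b* was called higher (2.33, SE 0.32, FDR 0.0001). Lower calls numbered 2 of 7 (0 without *Kat6a*-/- replicate 1 or 3), among them *Aqp4* (−1.61, SE 0.62, FDR 0.0433). The unweighted mean of *Aqp4* went the other way, from 117 ± 31.9 CPM in *Kat6a*+/+ to 291 ± 385 CPM in *Kat6a*-/- libraries. *Gfap* ran from 148 to 1905 CPM over the 4 *Kat6a*-/- libraries.

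Transcripts of cycling cells fell in differentiating *Kat6a*-/- NSPCs, with all 6 called lower, also without *Kat6a*-/- replicate 1 or 3 or the quality weights, and a sum of 571 to 950 CPM in *Kat6a*+/+ against 89.2 to 227 CPM in *Kat6a*-/- libraries, led by *Mki67* (−3.5, SE 0.24, FDR 2.49e-06) and *Top2a* (−3.18, SE 0.21, FDR 2.49e-06). In proliferating cells 2 of 6 were called lower, beside 13.8% of all genes. These were *Mcm2* (−0.38, SE 0.12, FDR 0.0346) and *Pcna* (−0.32, SE 0.11, FDR 0.0426). Of the intermediate progenitor genes, 3 of 4 tested were called lower in differentiating cells, *Insm1* (−4.44, SE 0.38, FDR 4.16e-06) and *Eomes* (−4.29, SE 0.35, FDR 3.25e-06) the most, and 1 higher (2 lower and 0 higher without *Kat6a*-/- replicate 1 or 3), while *Insm1*, the only one tested in proliferating cells, was called higher there (0.87, SE 0.22, FDR 0.0105). Among neuronal genes 5 of 9 were called lower and 1 higher in differentiating cells, beside 54.4% of all genes called (3 and 2 lower and 0 higher without *Kat6a*-/- replicate 1 and 3). *Dcx* (−4.51, SE 0.48, FDR 1.83e-05) and *Elavl4* (−3.98, SE 0.38, FDR 8.56e-06) were in front. The sum of the 9 genes overlapped, at 554 to 748 CPM in *Kat6a*+/+ and 472 to 786 CPM in *Kat6a*-/- libraries. Other genes of the list made up most of that sum. *Dcx* went from 39.3 ± 23.9 CPM in *Kat6a*+/+ to 4.55 ± 3.77 CPM in *Kat6a*-/- libraries, and *Elavl4* from 17.6 ± 10 to 1.83 ± 1.25 CPM. The overlap of the sums therefore does not show an equal share of neurons. In proliferating cells 3 of 8 were called lower and 1 higher, beside 30% of all genes. There the sums were 960 to 1244 and 1185 to 1324 CPM. *Tubb3* (−1.19, SE 0.28, FDR 0.00694) and *Rbfox3* (−1.77, SE 0.49, FDR 0.0156) reached at most 4.44 and 6.07 CPM in a proliferating *Kat6a*+/+ library. Oligodendrocyte lineage genes gave 1 higher of 6 in proliferating (*Olig1*, 0.26, SE 0.08, FDR 0.0218) and 1 higher and 4 lower of 6 in differentiating cells (0 and 1 without *Kat6a*-/- replicate 1 or 3), where *Pdgfra* was lower (−2.28, SE 0.29, FDR 6.02e-05) and *Cspg4* higher (2.10, SE 0.27, FDR 5.87e-05). Of ependymal genes 1 of 1 tested was called higher in proliferating (*Foxj1*, 0.69, SE 0.23, FDR 0.0333) and 1 of 3 in differentiating cells (0 without *Kat6a*-/- replicate 1 or 3). Endothelial genes gave 0 of 2 and 1 lower of 1, not called without either of these libraries (*Kdr*, −2.52, SE 0.35, FDR 9.86e-05). Of the microglia genes only *P2ry12* was tested and called, in proliferating cells (2.51, SE 0.24, FDR 1.9e-05), and the 5 genes together stayed under 8.25 CPM in every library.

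Across the 24 libraries, with each condition centred at its own mean, *Nes* and *Vim* had a Pearson's r of 0.818 (0.808 in proliferating and 0.85 in differentiating cells, 12 libraries each). *Ptprz1* and *Vcam1* had an r of 0.76 (0.888 and 0.528), and *Hopx* and *Prom1* 0.544 (0.343 and 0.725). *Fabp7* and *Tnc* were at −0.718 in differentiating and 0.178 in proliferating cells, and *Vim* and *Ptprz1* at −0.891 in proliferating and 0.207 in differentiating cells. These values are descriptions, since the libraries share genotypes and litters. Among 13590 genes, those whose centred profile was most like *Nes* were *Cnn1* (r 0.878), of an actin-binding protein, and *Cdc42ep1* (0.834). Most like *Vim* were *Map6* (0.90), of a microtubule-stabilising protein, and *Jund* (0.858), of an AP-1 subunit, and most like *Fabp7* were *Arl2bp* (0.837) and *Sox3* (0.828), of a SOX factor of neural progenitors. *Tnc* was most like *Spp1* (0.96), which encodes the matrix protein osteopontin, and *Ehd4* (0.944). *Ptprz1* was most like *Gria1* (0.923), of a glutamate receptor subunit, and *Kcnip3* (0.905), *Vcam1* like *Adgrl3* (0.902) and *Tmem9b* (0.894), *Hopx* like *Cacng4* (0.781), and *Prom1* like *Ctps2* (0.77) and *Rsph9* (0.765).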

How the data were processed

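Sequencing, alignment and counting were done by the authors, who deposited raw counts per gene (per the labels and methods, bcl2fastq, the mm39 genome and featureCounts, whose strand setting is not given in the sources used here). Each library is labelled with a litter and an embryo number, and libraries came from 5 litters (proliferating) and 7 litters (differentiating).

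From these counts, protein-coding genes (21030 of 26411 by RefSeq biotype, with 52 lacking one) passing edgeR's filter were scaled by TMM, after removal of *Xist* and Y-linked genes. The proliferating libraries went through limma-voom (limma 3.58.1) with a random litter effect (estimated correlation 0.287). For the differentiating libraries limma-trend was run on log2 CPM (prior count 2) with array quality weights. Both follow the methods that the study states, but the numbers of genes tested and called were not the study's. In differentiating *Kat6a*-/- against *Kat6a*+/+ cells 7258 of 13339 genes were called here, more than the study reports. In proliferating cells 3686 of 12276 were called, slightly fewer than it reports. The cause was not tested. For condition and interaction, all 24 libraries were fitted together here by limma-voom with a random litter effect (correlation 0.00365). Adjusted p-values are limma's with Benjamini-Hochberg adjustment over all genes tested, and a gene was called at FDR under 0.05. CPM are counts over TMM-scaled totals, and RPKM use the gene lengths in the files. Alternatives used edgeR 4.0.16 and DESeq2 1.42.0, library totals, no filter, all biotypes, other litter and weight terms, a replicate block and each library left out. Steps were tested on simulated data without litter effects or libraries of unequal quality, so that test does not bear on the litter term or the quality weights. No 2 replicates agreed within sampling noise (chi-square over degrees of freedom at least 5.81). The 8 genes and all gene lists were chosen with earlier results of these data known. Of each other list, the 2 called genes with the largest absolute log2 fold change in *Kat6a*-/- against *Kat6a*+/+ cells are named per condition, if their average log2 CPM was above 0, and for each of the 8 genes the 2 with the highest correlation, of which 1 is not reported here.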

Additional observations from a re-analysis of the deposited data

Results flagged for a closer look

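The *Kat6a*-/- difference of 3 of the 8 genes differed between the conditions in a direct test of the interaction (limma, Benjamini-Hochberg over 13590 genes). In differentiating minus proliferating cells it was 1.25 on the log2 scale for *Nes*, 1.20 for *Vim* and −0.95 for *Ptprz1*. The *Ptprz1* value became −0.84 (FDR 0.0594) without the *Kat6a*+/+ embryo whose libraries differ in Y-linked reads. Among the 48 sets of 4 libraries (8 genes in 6 groups), no library lay beyond Dixon's 95% critical value, where chance alone gives about 1 in 20 sets.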

How the results depend on the processing

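The 88 fold changes were refitted under 2432 combinations of result and alternative in all, of which 2186 kept their direction and their side of the threshold, 124 lost their call, 26 gained one and 96 changed sign. *Hopx* in differentiating *Kat6a*-/- against *Kat6a*+/+ cells was the only called result among those that changed sign. Fewer libraries were fitted where one was left out, and the cause of the other changes was not tested. The number of the 8 genes called in differentiating *Kat6a*-/- against *Kat6a*+/+ cells was 6 as reported, 0 with litter as a fixed term, 3 without quality weights, 3 with limma-voom and 0 to 7 with 1 library left out. Against *Kat6a*+/- cells it was 3 as reported, 1 with edgeR, 1 without the filter on low counts, 0 with fixed litter, 1 without weights, 1 with limma-voom and 0 to 4 with 1 library left out. For differentiating against proliferating *Kat6a*+/+ cells it was 8 as reported, 5 with fixed litter and 4 to 8 with 1 library left out. For the interaction of the *Kat6a*-/- difference with condition it was 3 as reported, 5 with DESeq2, 5 with quality weights and 3 to 5 with 1 library left out. Of *Kat6a*+/- against *Kat6a*+/+ cells, the differentiating count ran from 0 to 2 with 1 library left out. In *Kat6a*+/- against *Kat6a*+/+ in proliferating cells the sign changed for *Prom1* at −0.14 to 0.10 with 1 library left out. In *Kat6a*-/- against *Kat6a*+/- in proliferating cells the sign changed for *Tnc* at −0.00735 (library totals), −0.0057 (no filter), −0.00322 (replicate block), −0.00735 (no litter block), −0.0805 to 0.0971 with 1 library left out. In *Kat6a*-/- against *Kat6a*+/+ in differentiating cells the sign changed for *Hopx* at 0.0908 (edgeR), 0.0981 (DESeq2), −1.08 to 0.16 with 1 library left out, for *Ptprz1* at 0.0832 (edgeR), 0.0953 (DESeq2), 0.0322 (fixed litter), 0.0699 (no weights), 0.0618 (limma-voom), −0.17 to 0.15 with 1 library left out, and for *Prom1* at 0.0234 (edgeR), 0.0353 (DESeq2), −0.81 to 0.0679 with 1 library left out. In *Kat6a*+/- against *Kat6a*+/+ in differentiating cells the sign changed for *Fabp7* at 0.0604 (edgeR), 0.0713 (DESeq2), 0.18 (fixed litter), 0.0201 (no weights), 0.0204 (limma-voom), −0.19 to 0.10 with 1 library left out, for *Hopx* at 0.0411 (edgeR), 0.0472 (DESeq2), 0.47 (fixed litter), 0.0146 (replicate block), 0.11 (no weights), 0.12 (limma-voom), −0.34 to 0.26 with 1 library left out, for *Ptprz1* at 0.00521 (edgeR), 0.0134 (DESeq2), 0.15 (fixed litter), 0.0147 (replicate block), −0.0646 to 0.14 with 1 library left out, for *Prom1* at 0.0395 (edgeR), 0.0521 (DESeq2), 0.22 (fixed litter), and for *Vcam1* at −0.18 to 0.31 with 1 library left out. In *Kat6a*-/- against *Kat6a*+/- in differentiating cells the sign changed for *Hopx* at 0.0497 (edgeR), 0.0509 (DESeq2), −0.86 to 0.23 with 1 library left out, for *Ptprz1* at 0.078 (edgeR), 0.0819 (DESeq2), 0.077 (no weights), 0.0751 (limma-voom), −0.19 to 0.13 with 1 library left out, and for *Prom1* at −0.67 to 0.30 with 1 library left out. In the interaction of the *Kat6a*+/- difference with condition the sign changed for *Fabp7* at 0.10 (fixed litter), 0.037 (that embryo left out), −0.27 to 0.17 with 1 library left out, and for *Prom1* at 0.11 (edgeR), 0.11 (DESeq2), 0.35 (fixed litter), 0.0154 (replicate block), 0.0757 (a replicate block within genotype), 0.0971 (that embryo left out), −0.36 to 0.25 with 1 library left out. In differentiating *Kat6a*-/- against *Kat6a*+/- cells 50.8% of all genes called were higher as reported, 40.8% with edgeR, 31.7% with library totals and 24.4% with fixed litter. For the *Kat6a*-/- interaction 45.6% were higher as reported, 36.4% with all biotypes kept and 34.3% without the embryo with unlike Y-linked reads.

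By their labels, no same-numbered pair within a condition came from the same embryo, and 5 of 24 such pairs shared a litter. Between conditions, 5 of 12 same-numbered pairs carry the same embryo label and 7 the same litter. A low correlation does not make such pairs independent. Of 24 same-numbered pairs within a condition 5 had a correlation of deviations over 0.1 (−0.483 to 0.545), and of 12 pairs between conditions 2 did (−0.138 to 0.189). With the replicate number as a block, 5 of the 8 genes were called in differentiating against proliferating *Kat6a*+/+ cells, and 8 with a block within each genotype, which was added after the data were seen.

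With 4 libraries a group, and with 1 library holding most of the weight in differentiating *Kat6a*-/- cells, those fold changes are less certain than the ones in proliferating cells. Sex and genotype were partly confounded, and condition and RNA kit cannot be told apart. *Prom1* rests on the fewest counts.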
